A study of Mus musculus with 13 samples.

Results

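The loss of miR-146a alone was compared with wild type in mouse bone marrow progenitors by RNA sequencing. The comparison holds 3 libraries that lack miR-146a and keep Tifab (miR-146a_KO, genotype TIFAB+/+;miR146a-/-) and 3 libraries that keep both genes (WT, TIFAB+/+;miR146a+/+). Its members are all genes whose mean over these 6 libraries was 0 log2 CPM or more, which were 11934 of the 24062 rows of the series. Values are log2 CPM, the log2 of reads scaled to the total of the library, so a difference of 1 is a 2-fold difference. The sequenced cells were LK cells, marrow cells that carry c-kit but neither Sca-1 nor lineage markers, most of which are progenitors committed to myeloid, erythroid or megakaryocyte fates. Marrow of each genotype had been grafted into Boy/J recipients given 7.0 and 4.75 Gy with 3 h between doses, and the mice were 2 to 5 months old. The rest of the series lacks Tifab, an inhibitor of TRAF6 signalling. It has 3 libraries of TIFAB_KO (TIFAB-/-;miR146a+/+) and 4 of dKO (TIFAB-/-;miR146a-/-). The comparison of dKO against TIFAB_KO measures the same loss of miR-146a with group means that the main comparison does not use. The p-values of the main comparison rest on a spread estimated over all 13 libraries. The protocol gives 3 mice to a group, and no label ties a library to its own mouse, so the p-values below measure the spread between libraries.

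miR-146a is a small RNA that is transcribed under the control of NF-kB and that restrains the pathway which induces it. Signals from Toll-like and interleukin-1 receptors pass through the adaptor MYD88 and the kinases IRAK4 and IRAK1 to the ubiquitin ligase TRAF6, which activates TAK1, the IKK kinases and NF-kB. The messenger RNAs of TRAF6 and IRAK1 carry sites for miR-146a in their 3′ untranslated regions (UTRs), and its gene is among those lost in del(5q) myelodysplastic syndrome, where the loss has been tied to innate immune signalling in myeloid cells.

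The mature RNA and its close relative are shown because the seed, bases 2 to 8 in capitals, defines which UTRs can pair with them. Both are printed 5′ to 3′ from RefSeq on GRCm38.p6, miR-146a-5p from chr11:43374435-43374456 on the minus strand and miR-146b-5p from chr19:46342790-46342811 on the plus strand.
mmu-miR-146a-5p: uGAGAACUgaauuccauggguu
mmu-miR-146b-5p: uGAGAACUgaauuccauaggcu
The 2 RNAs share the seed, so a site for one is also a site for the other, and miR-146b was not deleted in these mice.

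Sites were sought on the sense strand of the longest annotated 3′ UTR of each gene in GENCODE M21, on mm10. An 8mer has the letters AGTTCTCA, a 7mer-m8 AGTTCTC, a 7mer-A1 GTTCTCA and a 6mer GTTCTC, and each gene was placed by its best site, since the shorter sites lie inside the longer ones. The sites of Traf6 and Irak1, of the reported target Numb and of Dio2, which had the only 8mer among the genes called below, are printed with the matching letters in capitals. Traf6 has 4 such 8mers in a UTR of 4170 bases, at chr2:101697937-101697966, chr2:101698001-101698030, chr2:101698813-101698842 and chr2:101701337-101701366 on the plus strand. Irak1 has 2 8mers, whose printed windows overlap, at chrX:74015393-74015422 and chrX:74015377-74015406 and a 7mer-A1 at chrX:74015287-74015316, all on the minus strand, and Numb has 1 8mer at chr12:83794813-83794842 on the minus strand. Dio2 has an 8mer at chr12:90729074-90729103 and a 7mer-m8 at chr12:90727709-90727738, both on the minus strand, in a UTR of 4860 bases.
Traf6 site 1: agaagttaccgctctggtgttgAGTTCTCA
Traf6 site 2: accatgatccctggaaggcttaAGTTCTCA
Traf6 site 3: catatacagtactttggagtctAGTTCTCA
Traf6 site 4: tctcccgggactttgctactgcAGTTCTCA
Irak1 site 1: atccctcagactcagaggtcaaAGTTCTCA
Irak1 site 2: ggtcaaagttctcatgcttggaAGTTCTCA
Irak1 7mer-A1: gagagagggcagtggaccctgctGTTCTCA
Numb site: atgcacctagaatattttaaatAGTTCTCA
Dio2 8mer: gctctgggaccagaggaccataAGTTCTCA
Dio2 7mer-m8: gctaatgtttttggcagcatctaAGTTCTC
A match is a run of letters and not evidence that miR-146a binds there in these cells.

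The 6 libraries held 7.83 to 12.0 M reads, of which 99.8 to 99.9% fell in tested genes, and 15087 to 16292 rows had a read in a library. The LK label was met by the sorting markers: Kit, the c-kit receptor, had 3074 to 4913 reads a library and Ly6a, which encodes Sca-1, had 11 to 36. Among lineage markers Cd3e had 1 to 9 reads, but the myeloid marker Itgam had 373 to 663. The 45S pre-rRNA row took 4.2 to 9.09% of reads in WT and 3.85 to 6.99% in miR-146a_KO. The row of the miR-146a gene had 0 reads in all 13 libraries, WT included, so the deletion could not be checked from it. The rows of the microRNA genes Mir142 and Mirlet7i also had 0 reads in all 13. Whether this protocol holds on to such short RNAs was not tested. Tifab, intact in both groups, had 5.34, 5.63 and 5.31 log2 CPM in WT and 6.11, 6.15 and 6.01 in miR-146a_KO. The 2 groups did not overlap for Tifab, but the log2 fold change of 0.67 ± 0.31 (SE) did not pass (limma adjusted p = 0.528). In a fit of the 6 libraries alone Tifab had an SE of 0.14 and passed (limma adjusted p = 0.0496).

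Few genes separated the 2 groups past the spread between libraries. At a Benjamini-Hochberg adjusted p under 0.05 in limma, 10 of 11934 genes (0.0838%) were called, 6 higher in miR-146a_KO (0.0503%) and 4 lower (0.0335%). The genes that rose were Lyrm7, Wdfy1, Efcab7, Vps13c, Dio2 and F630028O10Rik, and those that fell were Cmss1, Gm2a, 1700112E06Rik and 2810417H13Rik. No gene of the NF-kB response or cytokine lists, with 24 and 18 tested genes, was among them. With 0.0838% of all genes called, a count of 0 in lists of this size does not set them apart.

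Lyrm7 encodes an assembly factor of respiratory complex III and lies at chr11:54826866-54860916. It had 1.86, 1.32 and 1.60 log2 CPM in WT (43, 24 and 29 reads) and 4.72, 4.92 and 4.41 in miR-146a_KO (234, 319 and 166 reads). Every miR-146a_KO library lay far above every WT library, and Lyrm7 rose by 3.09 ± 0.32 (SE), 8.53-fold, with a limma adjusted p of 0.0001243. Gm2a, the activator protein of GM2 ganglioside breakdown and a gene of the del(5q) region in humans, lies near it at chr11:55098115-55113029. It had 7.42, 7.59 and 7.14 log2 CPM in WT and 6.28, 5.96 and 6.02 in miR-146a_KO. Gm2a fell by 1.30 ± 0.15, 2.46-fold, with no overlap between the groups (limma adjusted p = 0.000323). The neighbours Lyrm7 and Gm2a thus moved in opposite directions.

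Cmss1, which encodes a ribosomal small subunit homolog, lies at chr16:57302000-57606864. WT libraries had 4.51, 4.63 and 4.44 log2 CPM (272, 242 and 211 reads) and miR-146a_KO libraries 1.57, 2.04 and 2.51 (26, 43 and 44 reads). Cmss1 fell by 2.48 ± 0.27, 5.59-fold (limma adjusted p = 0.000168), and the WT libraries were close to one another. 1700112E06Rik, an unnamed locus at chr14:22019712-23056085, had 2.98, 2.67 and 2.95 log2 CPM in WT and 0.09, 0.25 and 0.42 in miR-146a_KO, where 9 to 12 reads remained. It fell by 2.61 ± 0.34 (limma adjusted p = 0.000944). The span of Cmss1 overlaps Filip1l on the other strand and that of 1700112E06Rik overlaps 7 annotated genes, and the sources used here do not say whether reads were counted by strand.

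Wdfy1, which encodes an adaptor that recruits TRIF to the Toll-like receptors TLR3 and TLR4, lies at chr1:79702262-79776143. Its 3.84, 3.57 and 4.16 log2 CPM in WT stood below 5.35, 5.30 and 5.50 in miR-146a_KO, and it rose by 1.53 ± 0.24 (limma adjusted p = 0.0115). Mrpl44, a mitochondrial ribosomal protein gene that overlaps Wdfy1 on the other strand, had a log2 fold change of 0.51 ± 0.17 (unadjusted p = 0.00828). Efcab7, a ciliary protein gene at chr4:99829198-99912788, had 2.93, 3.28 and 3.60 log2 CPM in WT and 4.51, 4.68 and 4.76 in miR-146a_KO. Efcab7 rose by 1.38 ± 0.22 (limma adjusted p = 0.0147), and its lowest miR-146a_KO library was above the highest WT library. The span of Efcab7 overlaps Itgb3bp on the other strand, which had 0.15 ± 0.28, and the use of strand in counting is not stated. Vps13c, a lipid transfer protein gene at chr9:67840396-67995638, went from 7.06, 6.80 and 6.88 to 8.08, 7.99 and 8.07 log2 CPM. Its miR-146a_KO libraries were nearly equal, and it rose by 1.13 ± 0.20 (limma adjusted p = 0.0262).

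Dio2, the deiodinase that activates thyroid hormone, lies at chr12:90724552-90738438 and carries the sites printed above. It had 5.23, 5.39 and 5.46 log2 CPM in WT and 6.71, 6.91 and 6.42 in miR-146a_KO, and it rose by 1.32 ± 0.23, 2.50-fold (limma adjusted p = 0.0262). F630028O10Rik at chrX:96239926-96243636, annotated as an antisense RNA, spans the gene of the myeloid microRNA miR-223 on the same strand. It had 4.95, 4.80 and 4.85 log2 CPM in WT and 6.04, 6.09 and 6.26 in miR-146a_KO, and it rose by 1.26 ± 0.23 (limma adjusted p = 0.0323). 2810417H13Rik, which encodes the PCNA-associated factor of DNA replication, lies at chr9:65890237-65903266. Its 6.86, 7.15 and 6.80 log2 CPM in WT stood above 6.17, 6.23 and 6.13 in miR-146a_KO, a fall of 0.77 ± 0.14 that passed closest to the threshold (limma adjusted p = 0.0462). The span of 2810417H13Rik overlaps Trip4 on the other strand, which had 0.18 ± 0.20, so the same limit on strand holds.

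**Figure D1:**
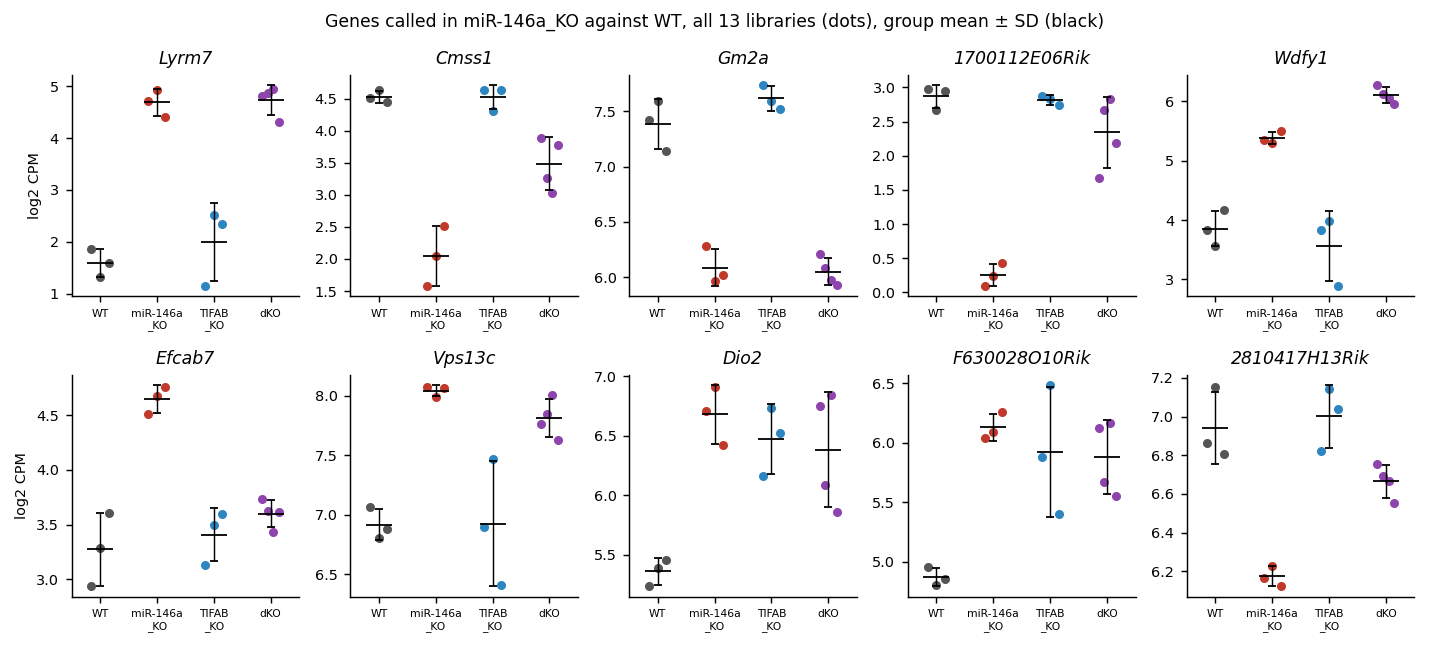
Log2 CPM of the 10 genes called in miR-146a_KO against WT, 1 panel a gene, with 1 point per library in each of the 4 groups and black bars for the mean ± SD. In Lyrm7 both groups without miR-146a are high (4.30 to 4.94 log2 CPM), in Cmss1 the miR-146a_KO libraries are lowest (1.57 to 2.51), and in Dio2 only the WT libraries are low (5.23 to 5.46).

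The call of 6 of these genes was lost in fits with 1 library fewer, while their log2 fold changes moved little. Over those fits Wdfy1 had 1.38 to 1.68, Efcab7 1.21 to 1.55, Vps13c 1.07 to 1.2, Dio2 1.21 to 1.45, F630028O10Rik 1.2 to 1.31 and 2810417H13Rik -0.83 to -0.66. Lyrm7, Cmss1, Gm2a and 1700112E06Rik kept theirs without each library in turn (highest limma adjusted p 0.0024, 0.00372, 0.00677 and 0.0148). Wdfy1 and Efcab7 lost theirs without any miR-146a_KO library and without WT replicate 1 or 2 (limma adjusted p up to 0.139 for each). Vps13c, Dio2 and F630028O10Rik lost theirs without any 1 of the 6 libraries (up to 0.207, 0.256 and 0.276), and 2810417H13Rik also without dKO replicate 1, 2 or 3 (up to 0.369). With 1 WT library left out the number called was 4 (replicate 1), 4 (replicate 2) and 6 (replicate 3), and with 1 miR-146a_KO library left out it was 5 (replicate 1), 4 (replicate 2) and 4 (replicate 3).

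In the libraries that lack Tifab, 8 of the 10 genes had the same sign in dKO against TIFAB_KO, all but Dio2 and F630028O10Rik, and the levels fell into 3 patterns. Lyrm7, Gm2a, Wdfy1 and Vps13c were on the same side by 0.89 or more when miR-146a was absent in those cells. Lyrm7 had 1.14, 2.52 and 2.33 log2 CPM in TIFAB_KO and 4.82, 4.87, 4.94 and 4.30 in dKO. The log2 fold changes of dKO against TIFAB_KO were 2.73 for Lyrm7, -1.57 for Gm2a, 2.53 for Wdfy1 and 0.89 for Vps13c. That comparison had 4 calls of 11934 (0.0335%), Lyrm7, Gm2a, Wdfy1 and the ribosomal stalk gene Rplp1, so 3 of its 4 are shared.

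Cmss1, 1700112E06Rik and Efcab7 were furthest from the rest in miR-146a_KO alone. Cmss1 had 4.64, 4.31 and 4.63 log2 CPM in TIFAB_KO and 3.88, 3.26, 3.02 and 3.78 in dKO, so dKO lay between miR-146a_KO and the other groups (-1.04 in dKO against TIFAB_KO, unadjusted p = 0.00066). 1700112E06Rik had 2.88, 2.83 and 2.74 in TIFAB_KO and 1.68, 2.67, 2.83 and 2.19 in dKO. Efcab7 differed by 0.19 in dKO against TIFAB_KO. For Dio2 and F630028O10Rik, WT was the only low group. Dio2 had 6.16, 6.74 and 6.52 in TIFAB_KO and 6.75, 6.09, 6.84 and 5.86 in dKO, and F630028O10Rik had 5.88, 6.49 and 5.40 and then 6.13, 5.67, 6.17 and 5.55. 2810417H13Rik lay nearer to WT than to miR-146a_KO in both, with -0.33 in dKO against TIFAB_KO (unadjusted p = 0.0218).

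The difference between the 2 losses of miR-146a did not pass for any gene (limma interaction, 0 of 11934 called and 501, or 4.2%, at an unadjusted p under 0.05). Its log2 value was 2.14 ± 0.46 for 1700112E06Rik (unadjusted p = 0.00019, adjusted p = 0.546), -1.41 ± 0.32 for Dio2 (unadjusted p = 0.00028, adjusted 0.546), 1.44 ± 0.37 for Cmss1 (unadjusted p = 0.0011, adjusted 0.603) and 1.01 ± 0.33 for Wdfy1 (unadjusted p = 0.0065, adjusted 0.944). The 3 patterns are therefore a description of the libraries.

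Below the threshold, values leaned toward higher in miR-146a_KO. The median log2 fold change over all tested genes was 0.093, and 7417 genes (62.2%) were above 0. At an unadjusted p under 0.05, 852 genes (7.14%) were higher and 273 (2.29%) lower, which turned to 514 and 517 after centring each library on its median and to 576 and 517 after quantile normalization. The 3 libraries of each group did not overlap for 1847 genes higher in miR-146a_KO (15.5%) and 763 lower (6.39%). A difference of at least 1 on the log2 scale was found in 284 genes (2.38%), and the median SE was 0.23. Of the 852 higher genes 81.3% had the same sign in dKO against TIFAB_KO, beside 72.5% of all genes above 0. Of the 273 lower genes 76.6% did, beside 60.0% of all genes below 0. The shares of all genes given here are the background for the counts of listed genes that follow.

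Of the genes that did not pass, the 12 per direction with the smallest p among those expressed at 3 log2 CPM or more, at least 0.8 apart and without overlap are described by their values. Skp2, the F-box protein that marks the inhibitor p27 for destruction, had 4.83, 4.81 and 5.17 log2 CPM in WT and 5.52, 6.06 and 6.22 in miR-146a_KO (1.00 ± 0.20, limma adjusted p = 0.099). Zbtb16, the transcription factor PLZF, had 3.86, 4.17 and 3.81 and then 4.98, 5.01 and 5.03 (1.06 ± 0.23), with a log2 fold change of 0.83 in dKO against TIFAB_KO. The groups stood apart for both, with the 3 miR-146a_KO libraries of Zbtb16 almost equal. The activin receptor gene Acvr1b had 0.98 ± 0.23, the copper transporter gene Slc31a2 1.04 ± 0.23, the SUMO protease gene Senp5 0.84 ± 0.20 and Mtus1, a microtubule-associated tumour suppressor, 1.48 ± 0.32. The granzyme gene Gzmb had 1.68 ± 0.45, Slfn9 0.82 ± 0.21, Sowahc 1.00 ± 0.27, Dolk 0.96 ± 0.24, Zfp518b 0.88 ± 0.23 and Erdr1 1.14 ± 0.25.

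The 12 lower genes that did not pass belonged to no single listed group. Tsc22d3, which encodes the glucocorticoid-induced leucine zipper, had 6.70, 6.01 and 5.96 log2 CPM in WT and 5.62, 4.51 and 4.68 in miR-146a_KO (-1.29 ± 0.30, limma adjusted p = 0.207), and -0.91 in dKO against TIFAB_KO. H1f0, a linker histone of resting cells, had 5.60, 5.69 and 5.63 and then 4.70, 4.97 and 4.80 (-0.82 ± 0.17, limma adjusted p = 0.143). H1f0 was tight within each group, and its difference in dKO against TIFAB_KO was -0.14. Rab6b, a Golgi transport GTPase, had -1.31 ± 0.29, the platelet basic protein gene Ppbp -1.13 ± 0.25, Ccdc69, which neighbours Gm2a, -1.04 ± 0.23 and the nuclear receptor gene Nr4a1 -1.65 ± 0.42. Hist1h2bc had -1.0 ± 0.28, Tmem9 -1.01 ± 0.26, the glutathione transferase gene Gstm5 -0.84 ± 0.23, the kinase gene Stk17b -0.81 ± 0.21, Rplp1 -0.81 ± 0.20 and 4930503L19Rik -0.81 ± 0.18.

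Fitting the 6 libraries without the other 7 called 86 genes (0.721%), 60 higher and 26 lower, with all 10 of the main fit among them. That fit takes the variance from these libraries alone (residual degrees of freedom 4 in place of 9), and it gave Lyrm7 an SE of 0.25 in place of 0.32. In dKO against TIFAB_KO, 68 of the 86 (79.1%) had the same sign. On the higher side the 86 held Tifab and, of 48 tested interferon genes, Irgm1, Parp14 and Igtp. Of 21 tested mast cell, basophil and eosinophil genes they held Gzmb, Cyp11a1 and Fcer1a. Rrm2 of the S-phase list, Alas1, Sdf2l1 and Ripk1 were also on the higher side. On the lower side the 86 held Pf4 and Ppbp of the platelet list, Nr4a1 and Egr3 of the immediate early list, and the ribosomal protein genes Rplp1, Rpl23, Rpl19 and Rps14.

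The reported targets of miR-146a were near or slightly above their WT levels, with 8 of the 10 tested above 0, beside 62.2% of all genes. At an unadjusted p under 0.05 there were 3, all higher, beside 7.14% of all genes. By limma 0 of the 10 were called over all 13 libraries or over the 6 alone, where 0.0838% and 0.721% of all genes were called, so a count of 0 in a list of this size does not set the targets apart from other genes. Traf6, with its 4 sites, had 7.08, 7.22 and 7.47 log2 CPM in WT and 7.31, 7.60 and 7.32 in miR-146a_KO, and the groups overlapped (0.15 ± 0.20, limma adjusted p = 0.823). Irak1 had 7.37, 7.24 and 7.36 and then 7.50, 7.58 and 7.37 (0.16 ± 0.13, limma adjusted p = 0.684), with groups that met end to end. The cell fate regulator Numb had 4.15, 4.64 and 4.58 and then 4.87, 4.90 and 5.19 (0.53 ± 0.20, unadjusted p = 0.0158, limma adjusted p = 0.48). The 2 Numb groups did not overlap, but its difference in dKO against TIFAB_KO was 0.053. The chemokine receptor gene Cxcr4 had 0.45 ± 0.21, and it lacks a site of 7 bases or more in the UTR searched. Further members were Fadd at 0.24, Smad4 at 0.19, Irak2 at 0.043, Notch1 at -0.036 and Relb at -0.24, and Card10 was under the filter on low values. The median of the 10 was 0.17, beside 0.093 for all genes. It was 0.23 without miR-146a_KO replicate 3 and 0.092 without replicate 2, and with the trend on transcript length removed it was 0.080, where that of all genes was 0.010.

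**Figure D2:**
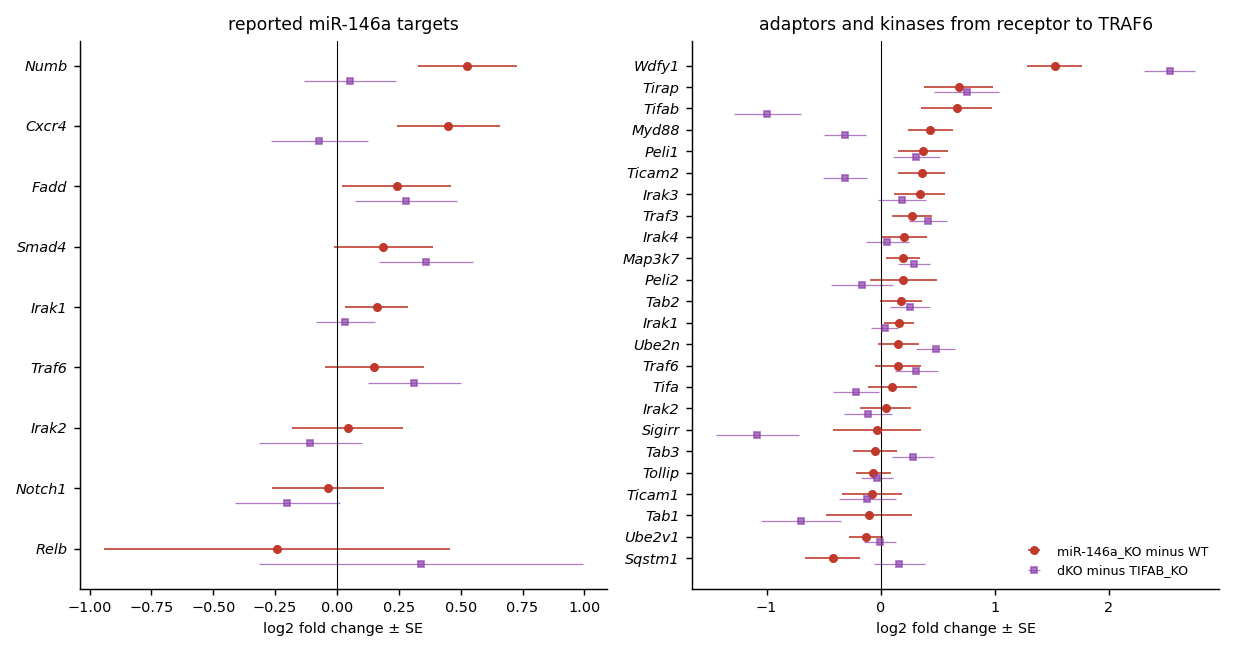
Log2 fold change of miR-146a_KO against WT with its SE for 9 of the 10 tested reported targets (left) and the 24 adaptors and kinases from receptor to TRAF6 (right), beside dKO against TIFAB_KO. Wdfy1 at 1.53 lies apart from the other adaptors, and Traf6 at 0.15 and Irak1 at 0.16 lie near 0.

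Across all UTRs, genes with a seed site had slightly higher medians than genes without one, and their UTRs were longer. The median log2 fold change was 0.15 over the 537 genes with an 8mer, 0.14 over 917 with a 7mer-m8, 0.12 over 1477 with only a 6mer and 0.069 over 7441 without a site, of 11285 genes with a UTR. The UTRs of genes with an 8mer had a median length of 2727 bases and those without a site 825. Within the longest of 3 equal classes of UTR length, over 1882 bases, the median was 0.16 both for the 375 genes with an 8mer and for the 1433 without a site. In the middle class it was 0.073 (131 genes) and 0.090, and in the shortest class, up to 723 bases, 0.16 (31 genes) and 0.013. In the longest class 74.9% of the 8mer genes and 70.0% of those without a site were above 0. The part of the site and of UTR length in these medians was not tested. Of the 8mer genes 51 were higher (9.5%) and 4 lower (0.745%) at an unadjusted p under 0.05, beside 7.11% and 2.36% of all genes with a UTR. In the longest class 9.87% of the 8mer genes and 10.0% of those without a site were higher, and 0.267% and 1.47% lower. The higher shares were 8.4% and 7.13% in the middle class and 9.68% (31 genes) and 4.21% in the shortest. Only Dio2 of the 537 genes with an 8mer was called, where 0.0838% of all genes were. After Dio2, the smallest p among them belonged to Sowahc and to Klhl42, a ubiquitin ligase adaptor gene with 1.06 ± 0.29 and, in dKO against TIFAB_KO, 0.62.

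The medians also differed by transcript length. In 5 classes of equal size by the longest annotated transcript, the median log2 fold change was -0.033 in the shortest, 0.047, 0.094 and 0.13 in the next, and 0.19 in the longest. In dKO against TIFAB_KO the medians ran from -0.14 to 0.27. Its part in the lists described here was not tested beyond a fit with the trend removed, which called 10 genes, 9 of them shared.

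**Figure D3:**
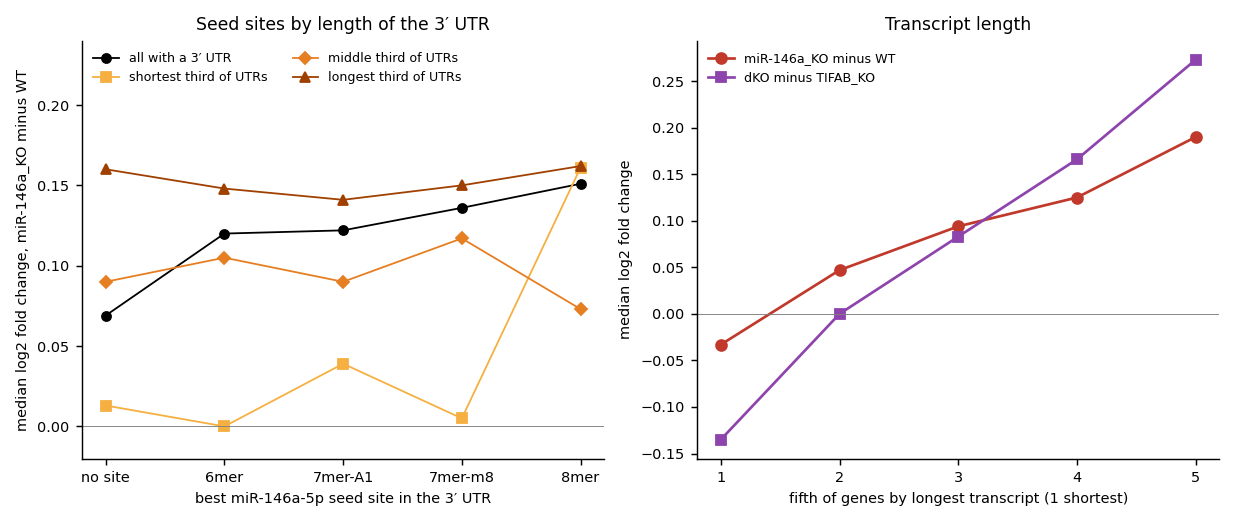
Left, median log2 fold change of miR-146a_KO against WT by best seed site in the 3′ UTR, for all genes with a UTR and within 3 classes of UTR length. Right, the median by 5 classes of transcript length in both comparisons. The longest UTRs stand at 0.16 with an 8mer and 0.16 without a site, and the transcript length classes climb from -0.033 to 0.19.

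Along the signalling pathway, single receptors and adaptors stood above WT in miR-146a_KO. Of 15 tested Toll-like receptors and coreceptors 9 were above 0, near the 62.2% of all genes, and 3 had an unadjusted p under 0.05, all higher, beside 7.14% of all genes. Tlr3, the receptor of double-stranded RNA, had 0.17, 0.46 and 0.84 log2 CPM in WT and 1.68, 2.45 and 2.01 in miR-146a_KO (1.55 ± 0.47, limma adjusted p = 0.417). Tlr4, the lipopolysaccharide receptor, had 1.86, 3.21 and 2.97 and then 3.84, 3.80 and 3.48 (1.03 ± 0.39). The groups did not overlap for either gene, nor for the weakly expressed Tlr1 (1.30 ± 0.54). Tlr3, Tlr4 and Tlr1 had 0.39, -0.08 and -0.16 in dKO against TIFAB_KO. Tlr7, named here after its values were seen, was lower without overlap. It had 2.43, 2.82 and 2.46 log2 CPM in WT and 2.11, 1.94 and 1.65 in miR-146a_KO (-0.67 ± 0.45), and -0.39 in dKO against TIFAB_KO. The list median of 0.19 was 0.072 with WT replicate 1 left out, 0.37 with WT replicate 2 left out and 0.12 with the length trend removed.

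Of 24 adaptors and kinases up to TRAF6, 17 were above 0, beside 62.2% of all genes. Their median was 0.17, and 0.056 with the length trend removed, where that of all genes was 0.01. An unadjusted p under 0.05 was found for 4, all higher, beside 7.14% of all genes. Of these Wdfy1 was called, where 0.0838% of all genes were. Myd88, the shared adaptor of the pathway, had 3.72, 3.52 and 3.82 log2 CPM in WT and 4.05, 4.21 and 4.11 in miR-146a_KO (0.44 ± 0.20). Tirap, which brings MYD88 to TLR4, had 3.90, 4.03 and 4.28 and then 4.59, 4.98 and 4.69 (0.68 ± 0.30). Both were without overlap, and limma gave each an adjusted p of 0.527. Tirap had 0.75 and Myd88 -0.31 in dKO against TIFAB_KO. Other members were the kinase Irak4 at 0.21, its inhibitory relative Irak3 at 0.34, the TAK1 gene Map3k7 at 0.20 and the TIFAB partner Tifa at 0.10, none with an unadjusted p under 0.05.

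Of the 13 IKK kinases and NF-kB subunits the median was 0.015, negative after centring and 0.16 over those at a mean of at least 3 log2 CPM. Tbk1, a kinase of the interferon arm, had 0.38 ± 0.18, and Bcl10, an adaptor of the antigen receptor route, -0.52 ± 0.24. Of 24 NF-kB feedback and response genes 9 were above 0 and 15 below, with a median of -0.13 that was -0.001 without miR-146a_KO replicate 2. Tnfaip3, which encodes the inhibitor A20, had 8.41, 8.99 and 8.87 log2 CPM in WT and 8.25, 7.33 and 8.05 in miR-146a_KO (-0.88 ± 0.41, limma adjusted p = 0.528), and 0.79 in dKO against TIFAB_KO. The AP-1 gene Junb had -0.70 ± 0.28 and the caspase inhibitor gene Cflar 0.40 ± 0.15. Of 18 cytokines and chemokines Tnf had 4.93, 5.01 and 4.70 and then 4.89, 3.45 and 3.61, so 1 library of miR-146a_KO remained at the WT level. Ptgs2, cyclooxygenase 2, had 0.52 ± 0.21 in this comparison and 0.51 in dKO against TIFAB_KO, and the chemokine gene Ccl9 had -0.40 ± 0.19 and -0.72.

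Interferon response genes had higher values more often than lower ones, as all genes did. Of 48 tested, 34 were above 0, beside 62.2% of all genes. At an unadjusted p under 0.05, 8 were higher and 0 lower, beside 7.14% and 2.29% of all genes. Without overlap 11 were higher and 0 lower, beside 15.5% and 6.39% of all genes. The list median was 0.21 (0.15 without WT replicate 1). Irgm1, an immunity-related GTPase, had 4.31, 4.45 and 4.96 log2 CPM in WT and 5.34, 5.85 and 5.64 in miR-146a_KO (1.04 ± 0.29, limma adjusted p = 0.412). Stat2 and Irf9, transcription factors of the interferon response, had 0.73 ± 0.22 and 0.54 ± 0.19, and the ADP-ribosyltransferase gene Parp14 had 0.75 ± 0.21. Irgm1, Stat2, Irf9 and Parp14 had 0.89, 0.29, -0.0045 and 0.41 in dKO against TIFAB_KO. No interferon gene passed over all genes. With 0.0838% of all genes called, a count of 0 in 48 does not set this list apart. In the fit of the 6 libraries alone Irgm1, Parp14 and Igtp were called, where 0.721% of all genes were. Irgm1 and Igtp lie on chromosome 11, 5.49 and 14.83 Mb from the miR-146a gene, and the part of this distance in their values was not tested.

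Among lineage lists, erythroid and platelet genes had negative medians, and granulocyte, macrophage and B-lineage genes positive ones. In bulk libraries fewer cells of a type and less RNA per cell cannot be told apart. Of 32 tested erythroid genes 20 were below 0, and 6 had an unadjusted p under 0.05, all of them lower, beside 2.29% of all genes. The carbonic anhydrase gene Car1 had 10.54, 10.43 and 10.79 log2 CPM in WT and 9.83, 10.20 and 9.85 in miR-146a_KO (-0.62 ± 0.21), and Car2 had -0.53 ± 0.19. The sodium pump subunit gene Atp1b2 had -0.56 ± 0.18 and the amino acid carrier gene Slc38a5 -0.74 ± 0.24. These 4 were without overlap, yet in dKO against TIFAB_KO they had 0.49, 0.20, 0.62 and 0.63, the opposite sign. The list median of -0.13 was -0.053 without miR-146a_KO replicate 1 and -0.23 without WT replicate 1, its summed level was 4320 to 5510 CPM in WT and 3300 to 4190 in miR-146a_KO, and the globin rows Hba-a1, Hba-a2, Hbb-bs and Hbb-bt had 0 reads. Klf1, an erythroid master regulator, and Gata1 of the same list, both named here after their values were seen, had 0.046 ± 0.23 and -0.46 ± 0.22.

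Of 27 megakaryocyte and platelet genes 24 were below 0 in this comparison, with 6 lower and 1 higher at an unadjusted p under 0.05. Pf4, platelet factor 4, had 8.52, 8.77 and 8.85 log2 CPM in WT and 7.81, 8.21 and 7.92 in miR-146a_KO (-0.73 ± 0.23, limma adjusted p = 0.417). Its neighbour Ppbp had 4.82, 4.57 and 5.74 and then 3.88, 4.05 and 3.82 (-1.13 ± 0.25, limma adjusted p = 0.152), and Treml1, a platelet receptor gene, had -0.79 ± 0.30. The groups of all 3 stood apart. Thbs1, thrombospondin 1, went the other way with 0.78 ± 0.29. The list median was -0.28, with -0.14 without miR-146a_KO replicate 1 and -0.43 without replicate 2, and in dKO against TIFAB_KO it was -0.11.

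Granulocyte-monocyte progenitor genes were above 0 for 21 of 23, though few stood far from WT. Gfi1, a repressor that guides granulocyte fate, had 3.64, 3.54 and 2.54 log2 CPM in WT and 3.62, 4.24 and 4.01 in miR-146a_KO (0.72 ± 0.32), and Ms4a3 had 0.63 ± 0.30. WT replicate 3 was the low library in both, and without it the list median of 0.23 was 0.037. The values turned in dKO against TIFAB_KO, with -1.06 for Gfi1, -0.70 for Ms4a3 and a list median of -0.46. Mpo, named here after its values were seen as the defining enzyme of the primary granule, had 0.17 ± 0.23.

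Of 22 monocyte, macrophage and dendritic cell genes 16 were above 0 and 11 were higher without overlap, beside 62.2% and 15.5% of all genes. The list median was 0.64, with 0.54 to 0.75 without any 1 of the 6 libraries, and over the genes at a mean of at least 3 log2 CPM it was 0.40. Vcam1, an adhesion molecule of marrow macrophages and stroma, had 4.13, 1.97 and 2.79 log2 CPM in WT and 4.36, 4.69 and 4.37 in miR-146a_KO (1.51 ± 0.54, limma adjusted p = 0.465). The chemokine receptor genes Ccr2 and Cx3cr1 had 0.52 ± 0.21 and 0.77 ± 0.33, and the dendritic cell lectin gene Clec9a 0.76 ± 0.35. In dKO against TIFAB_KO the list median was -0.040. The summed level of the list was 424 to 555 CPM in WT and 571 to 633 in miR-146a_KO, and no listed marker was at 0 in all 6 libraries.

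Mast cell, basophil and eosinophil genes had the largest list median, 0.81 over 21 tested genes, and it moved with 1 library and with the level of the genes. Without miR-146a_KO replicate 1 it was 0.25, over the genes at a mean of at least 3 log2 CPM it was 0.27, and in dKO against TIFAB_KO it was -0.063. Cyp11a1, a steroid side chain cleaving enzyme found in mast cells, had 1.44, 0.10 and -0.83 log2 CPM in WT and 3.35, 2.88 and 3.29 in miR-146a_KO (2.93 ± 0.64, limma adjusted p = 0.146), and 1.31 in dKO against TIFAB_KO. Gzmb had 4.69, 4.82 and 4.10 and then 5.98, 6.20 and 6.47, and the eosinophil peroxidase gene Epx had 5.48, 5.12 and 3.72 and then 6.75, 5.82 and 5.59. All 3 were without overlap. The list had 15 genes above 0, with 6 higher and 0 lower at an unadjusted p under 0.05 (7.14% and 2.29% of all genes). Gzmb, Cyp11a1 and Fcer1a were called in the fit of the 6 libraries alone, where 0.721% of all genes were. Fcer1a had 1.03, and -0.31 in dKO against TIFAB_KO. The mast cell markers Cpa3 and Ms4a2 had -0.031 and -0.086, so the listed genes did not move as a block. Cpa3, Ms4a2 and Fcer1a are named here after their values were seen.

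B-lineage genes had the next list median, 0.69, from few reads. Of 12 tested 11 were above 0, and 3 had an unadjusted p under 0.05, all higher. Igll1, a part of the surrogate light chain of the pre-B cell receptor, had 1.09, -0.047 and -0.58 log2 CPM in WT and 2.69, 1.03 and 3.0 in miR-146a_KO (2.09 ± 0.64, limma adjusted p = 0.417). The complement receptor gene Cr2 had 2.01 ± 0.69 and Ebf1 1.98 ± 0.71. The member below 0 was Dntt, named here after its values were seen, with a mean of 4.22 log2 CPM over the 6 libraries. Dntt had -1.25 (limma adjusted p = 0.655) and -0.86 in dKO against TIFAB_KO. In the fit of the 6 libraries alone it was the only B-lineage gene called (limma adjusted p = 0.0161). The list median was 0.54 to 0.97 without any 1 of the 6 libraries and 0.49 in dKO against TIFAB_KO, but over the genes at a mean of at least 3 log2 CPM it was 0.028. The summed level was 72.7 to 82.2 CPM in WT and 80.2 to 91.1 in miR-146a_KO, and the part of B-lineage cells in the other lists was not tested. T and NK cell genes had a median of -0.38 over 8 tested, with 5 below 0.

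**Figure D4:**
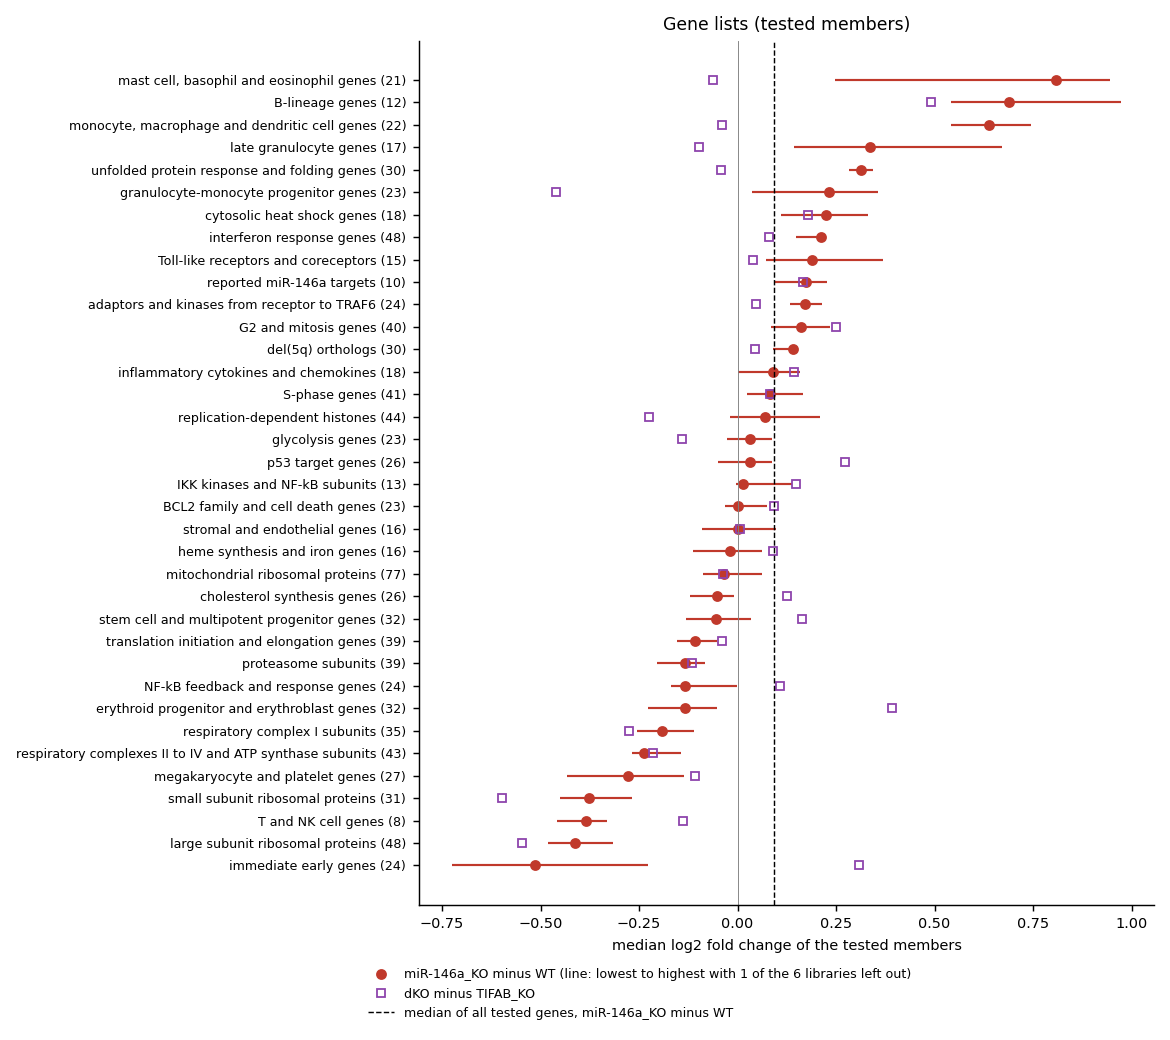
Median log2 fold change of the tested members of each gene list in miR-146a_KO against WT, with a line from the lowest to the highest median when 1 of the 6 libraries is left out, beside dKO against TIFAB_KO. The dashed line is the median of all genes, 0.093. Mast cell, basophil and eosinophil genes are highest at 0.81 with a line down to 0.25, and immediate early genes lowest at -0.51.

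Genes of protein folding in the endoplasmic reticulum had higher values in miR-146a_KO in most cases. Of 30 tested, 25 were above 0, beside 62.2% of all genes. At an unadjusted p under 0.05, 10 were higher (7.14% of all genes) and 1 lower (2.29%), and 19 were higher without overlap (15.5% of all genes). The list median was 0.31, and with the length trend removed it was 0.20, where that of all genes was 0.010. Sdf2l1, a chaperone cofactor, had 5.78, 6.08 and 6.49 log2 CPM in WT and 6.94, 7.18 and 6.74 in miR-146a_KO (0.84 ± 0.23, limma adjusted p = 0.369). Sel1l and Syvn1, which form the ligase complex that clears misfolded proteins, each had 0.51, with SE of 0.16 and 0.17. The transcription factor gene Atf4 was the lower one, with 8.14, 7.81 and 7.87 and then 7.79, 7.27 and 7.49 (-0.42 ± 0.15). The median of the list was 0.28 to 0.34 without any 1 of the 6 libraries and -0.043 in dKO against TIFAB_KO.

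Immediate early genes, which cells switch on within minutes of a stimulus or of handling, leaned lower. Of 24 tested 20 were below 0, with 9 lower and 1 higher at an unadjusted p under 0.05 and a median of -0.51. Nr4a1 had 6.50, 6.79 and 6.23 log2 CPM in WT and 5.43, 3.94 and 5.19 in miR-146a_KO (limma adjusted p = 0.284), and Fosb had 9.19, 9.0 and 8.66 and then 8.67, 7.20 and 7.66 (-1.10 ± 0.36). miR-146a_KO replicate 2 was the lowest library for both, and without it the list median was -0.23. Ier2 had -0.78 ± 0.22 and Egr3 -1.63 ± 0.56. In dKO against TIFAB_KO the list median was 0.31. Of 18 cytosolic heat shock genes 15 were above 0 and 5 were higher at an unadjusted p under 0.05, but WT replicate 1 stood apart, and the part of this library in other results was not tested beyond leaving it out. The inducible chaperone gene Hspa1b had 1.09, 8.21 and 7.27 in WT and 8.58, 8.27 and 7.78 in miR-146a_KO, and without WT replicate 1 the list median of 0.23 was 0.11.

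Cytosolic ribosomal protein genes were lower together. Of 48 large subunit genes 46 were below 0, 17 had an unadjusted p under 0.05, all lower (2.29% of all genes), and 32 were lower without overlap (6.39% of all genes), with a median of -0.41. Of 31 small subunit genes 30 were below 0, 15 had an unadjusted p under 0.05, all lower, and 20 were lower without overlap, with a median of -0.38. With 1 of the 6 libraries left out the medians were -0.481 to -0.315 (large) and -0.45 to -0.267 (small). Averaged over the genes, WT replicate 1 lay 0.386 (large) and 0.422 (small) above the mean of the 6 libraries. The other WT libraries lay 0.069 to 0.14 above it. Rplp1, a protein of the ribosomal stalk, had 8.60, 8.41 and 7.94 log2 CPM in WT and 7.52, 7.46 and 7.54 in miR-146a_KO, where the 3 libraries were close together. It did not pass here (limma adjusted p = 0.284) and fell by 1.27 in dKO against TIFAB_KO, where it was called. Rps14, whose loss underlies the anaemia of del(5q) disease, had 8.41, 8.15 and 7.82 and then 7.45, 7.30 and 7.58 (-0.68 ± 0.29), and -1.27 in dKO against TIFAB_KO. The medians there were -0.55 and -0.60. These transcripts are short, with a median length of 1169 and 1109 bases, and with the length trend removed the medians were -0.31 and -0.33. Their summed level was 45500 to 53000 CPM in WT and 37200 to 41700 in miR-146a_KO for the large subunit, with no overlap between the groups.

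The genes around the miR-146a gene on chromosome 11 were counted by distance from it. Of the 16 tested genes within 5 Mb on the side of higher coordinates, 7 had an unadjusted p under 0.05 (43.8%), of the next 5 Mb 6 of 48 (12.5%) and of 10 to 15 Mb 8 of 40 (20%), which include Lyrm7 and Gm2a. From 15 to 20 Mb it was 5 of 70 (7.14%), and over all genes 9.43%. On the other side 0 of 10 genes within 10 Mb had such a p, and from 10 to 20 Mb 3 of 38 (7.89%). Pttg1, the securin gene 0.049 Mb from miR-146a, had 0.91, and 0.99 in dKO against TIFAB_KO. Of the other 6 genes within 5 Mb with such a p, the B cell factor gene Ebf1 had 1.98 and 1.55, Lsm11 0.64 and 0.54, Pwwp2a 0.44 and 0.26 and Cyfip2 -0.40 and -0.47. The metalloprotease gene Adam19 had 1.77 and -0.21 and Ccnjl 1.27 and -0.011, so these were not high in the other pair. Just beyond 5 Mb, Irgm1 had 1.04 and 0.89 and the GTPase gene Tgtp1 2.83 and 2.49. A second group of interferon GTPase genes had high values in miR-146a_KO against WT that the other pair lacked, with 1.84 and 0.039 for Irgm2 and 1.50 and -0.074 for Gm12250. Of these genes only Lyrm7 and Gm2a were called, the others were named after their values were seen, and the part of distance in their values was not tested. Of the called genes outside chromosome 11, Wdfy1 had 2 neighbours within 500 kb with an unadjusted p under 0.05 (Mrpl44 and Serpine2), Vps13c had 1 (Tln2), and the other 6 had 0.

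**Figure D5:**
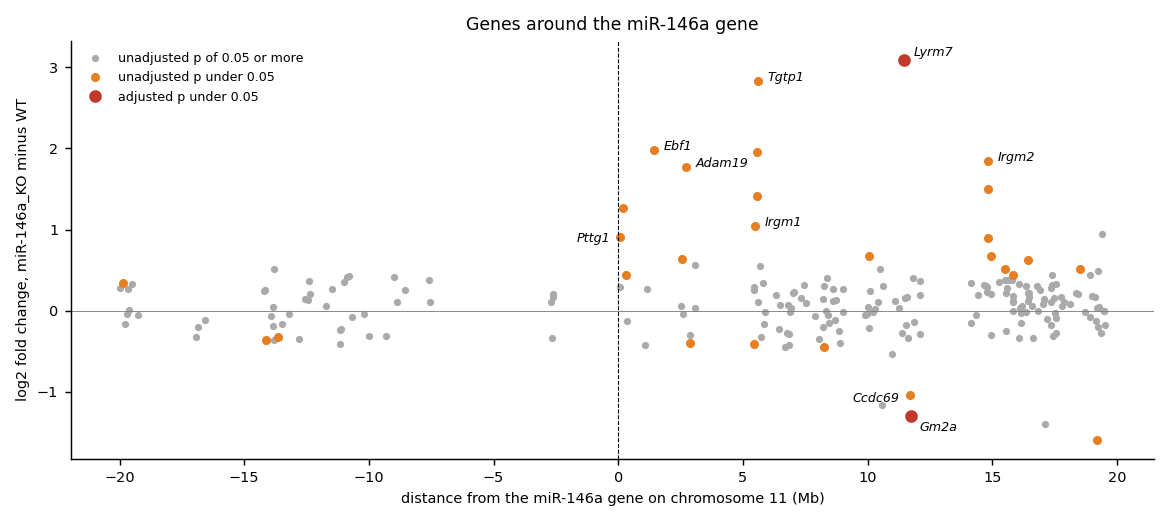
Log2 fold change of miR-146a_KO against WT of each tested gene within 20 Mb of the miR-146a gene on chromosome 11, by distance in Mb. Coloured points have an unadjusted p under 0.05 and the 2 largest are called. Lyrm7 at 3.09 and Gm2a at -1.30 lie near 11.5 Mb, and the share of coloured points is 43.8% within 5 Mb on the side of higher coordinates.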

How the data were processed

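LK cell RNA was amplified (Ovation RNA-Seq System v2) and made into Nextera XT libraries, per the labels' protocols. Per the submitters' processing notes, reads were handled with TopHat, featureCounts and limma on mm10; the sources used here give neither versions nor the use of strand in counting. The authors deposited log2 CPM as voom computes it, where a gene's reads have 0.5 and a library's total has 1 added. All values (100%) gave whole reads within 0.01 read, and totals were 12.0, 9.82 and 9.75 M reads in WT and 8.90, 10.5 and 7.83 M in miR-146a_KO. Of 24062 rows, 4055 had no read in any library, and the symbols of 27 had turned into dates; these were kept as they stand.

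The deposited values were tested with limma 3.58.1 in R 4.3.3, with 1 mean for each of 4 groups over all 13 libraries (residual degrees of freedom 9, prior 9.49), a variance trend on mean level and Benjamini-Hochberg adjustment over the 11934 genes at a mean of 0 log2 CPM or more in the 6 libraries. Errors are SE. The contrasts were miR-146a_KO minus WT, dKO minus TIFAB_KO and their difference. The script was tested on simulated data. Of the rows, 98.2% matched GENCODE M21 by name or RefSeq synonym. Genes were named by rule: Tifab, Mir146, the reported targets and the adaptors, every called gene, up to 12 uncalled genes per direction (mean of at least 3, difference of at least 0.8, no overlap) and up to 4 members per list by smallest p; genes outside it are marked. Lists were written from general knowledge, and a few of their genes are not reported here. The members, lists and tests were chosen with earlier results of these data known, and the alternatives are in the closing section. Same-numbered WT and miR-146a_KO libraries did not deviate together (r of 0.021, -0.064 and -0.1 across genes), and the labels do not pair them.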

Additional observations from a re-analysis of the deposited data

How the results depend on the processing

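The 10 calls became 5 without a variance trend, 86 with only the 6 libraries compared, 216 with library quality weights (171 higher, 45 lower) and 4 to 12 with 1 library left out. They were 8 without a filter, 9 at a mean of at least 3 log2 CPM, 10 with centring or robust variances, 12 with quantile normalization or at an adjusted p under 0.1, and 8 with limma-voom weights. A replicate block gave 9, 8 of them shared, and the numbers do not pair the libraries. Chosen after seeing the data were 2 more fits: removing the length trend (10) and leaving out TIFAB_KO replicate 3 and dKO replicate 3, the libraries least like the rest (15). Lyrm7, Cmss1 and Gm2a were called under every alternative, and 1700112E06Rik under every one that tested it.

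Genes near 0 changed sign. Irak2 had -0.037 with centring, -0.031 with quantile normalization, -0.048 with quality weights and -0.038 with the length trend removed, where Traf6 had -0.017. With quality weights Tab1 had 0.20, Tab3 0.017 and Sigirr 0.14. With 1 library left out the ranges were -0.12 to 0.23 for Irak2, -0.22 to 0.19 for Notch1, -0.37 to 0.11 for Ticam1, -0.47 to 0.15 for Tab1, -0.15 to 0.0085 for Tollip, -0.28 to 0.34 for Sigirr, -0.54 to 0.070 for Relb, -0.075 to 0.52 for Peli2, -0.14 to 0.0076 for Tab3 and -0.72 to 0.086 for Cd28. The causes were not tested. Genes with few reads, such as 1700112E06Rik with 9 to 12, are limited by counting error.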

Other observations

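Cell cycle genes had values near or above those of WT. Of 41 S-phase genes 8 were higher and 1 lower at an unadjusted p under 0.05. The ribonucleotide reductase gene Rrm2 had 6.69, 6.77 and 6.90 log2 CPM in WT and 7.38, 7.44 and 7.28 in miR-146a_KO (0.58 ± 0.15, limma adjusted p = 0.318), and the replication licensing gene Cdc6 had 0.60 ± 0.17. The lower one was the called 2810417H13Rik. Of 40 G2 and mitosis genes 33 were above 0 with a median of 0.16, and the cytokinesis gene Ect2 had 0.50 ± 0.16.

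Complex I and proteasome subunits were mostly below 0, 30 of 35 and 29 of 39, with medians of -0.19 and -0.13. Their transcripts have a median length of 1046 and 1907 bases. With the length trend removed the medians were -0.105 and -0.125. They were -0.11 for complex I without miR-146a_KO replicate 3 and -0.082 for the proteasome without WT replicate 1. Uqcrq, a complex III subunit gene that is also on chromosome 11, had 5.20, 4.98 and 4.78 log2 CPM in WT and 5.67, 5.60 and 5.71 in miR-146a_KO, against 34 of 43 members of the other complexes below 0. In dKO against TIFAB_KO it had 0.0072. Among linker and core histones, Hist1h1e had -0.51 ± 0.16 and Hist1h3d 1.39 ± 0.46, without overlap in either.

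The cell death kinase gene Ripk1 had 6.02, 6.28 and 6.29 log2 CPM in WT and 6.70, 6.87 and 6.82 in miR-146a_KO (0.60 ± 0.17, limma adjusted p = 0.417). The first enzyme of heme synthesis in non-erythroid cells, Alas1, had 6.57, 6.29 and 5.93 and then 7.12, 6.96 and 6.99 (0.76 ± 0.27). The 3 libraries of each group did not overlap for either gene. Cdkn1a, the cell cycle inhibitor induced by p53, had 7.33, 7.14 and 6.46 and then 6.58, 5.49 and 6.12 (-0.91 ± 0.38), and the median of 26 p53 targets was 0.031, negative after centring.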
